A study of Mus musculus with 7 samples.

Results

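The data described here are the values of 10 marker genes of connective tissue and blood vessels, taken by gene symbol from 49315 genes counted in each library: Dcn, Lum and Postn as markers of fibroblasts, Pdgfrb, Rgs5, Acta2, Tagln and Vtn as markers of mural cells, and Pecam1 and Cldn5 as markers of endothelial cells. The 7 cultures held primary mouse oligodendroglia after 6 days in differentiating SATO medium with thyroid hormones, 4 of them from wildtype controls and 3 from Klf13 knockouts. The cultures came from brains of newborn pups of both sexes (postnatal day 0 to 3) and were purified by shake-off from mixed glia and by depletion of microglia. The deletion was in the mice themselves and not induced in culture, so that all cell types of a knockout culture lacked Klf13, a zinc finger transcription factor. The study sequenced both groups to find genes whose expression changes with the loss of Klf13. The labels call each library a biological replicate, and whether litters were pooled is not stated.

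Fibroblasts of the brain sit in the meninges and around larger vessels and lay down extracellular matrix. Mural cells, that is pericytes and smooth muscle cells, wrap the vessel wall, depend on signals through the PDGF receptor beta and, as smooth muscle, contract through their own actin and actin-binding proteins. Endothelial cells line the lumen and in the brain seal it with tight junctions. Several of these markers are not exclusive: Pecam1 is also carried by myeloid cells, Acta2 and Tagln can be turned on in many cells on culture plastic, and Pdgfrb, Postn and Dcn are shared among mesenchymal cells.

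Total counts on genes ranged from 24507471 to 59596479 per library, so that a gene without a count may still take up to 5.03e-06 to 1.22e-05 percent of a library (3 counts, counting error only). Gm42418, Gm23935 and Lars2, 3 genes that gather ribosomal RNA reads, took 6.03% to 18.0% of the counts, with libraries of both groups at either end. Klf13 itself had 10670 to 12000 normalized counts in the control cultures against 802 to 961 in the knockout cultures. Normalized counts are counts divided by the TMM-scaled library size and multiplied by its mean, and levels of different genes are compared only per kilobase of exon. The 18352 genes with enough counts were compared with edgeR's quasi-likelihood test, and p-values were adjusted over all of them. Log2 fold changes are knockout over control, with their standard error (SE) and 95% confidence interval.

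The sequence upstream of Acta2 is shown because Acta2 and Tagln are textbook targets of serum response factor, which binds CArG boxes, and because both genes moved together over the libraries. In the RefSeq promoter of Acta2 on GRCm38.p6 (chr19:34255324-34255623, minus strand), a CArG-like motif was found at 2 places. The motif was spelled CCNNNNNNGG with at most 1 G or C among the 6 inner bases, reads alike on both strands, and is marked in capitals.
Acta2 CArG-like match 1: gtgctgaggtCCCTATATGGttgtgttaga
Acta2 CArG-like match 2: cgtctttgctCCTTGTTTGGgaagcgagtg
The windows lie at chr19:34255438-34255467 and chr19:34255388-34255417. Read from the start of Acta2 in the count files, the matches begin 121 and 71 bases upstream, and 84 and 34 bases upstream of the RefSeq start. A longer transcript in GENCODE M21 has a first exon, 34255290 to 34255590, that covers both. Matches without any inner G or C numbered 0, and the wider spelling was chosen after this sequence was seen. At least 1 CArG-like match was found in 9.98% of 32851 promoters of the same length (300 bases), and 0.822% held at least 2. The CACCC motif, a core that Krüppel-like factors can bind, was found 2 times in the Acta2 promoter on either strand, without overlap with the CArG-like matches, and was present in 57.5% of all promoters, at least 2 times in 25.7%. Promoters of 5 of the 10 genes were in the table. That of Tagln was not among them, so that a motif shared by Acta2 and Tagln was not tested. Those of Cldn5, Postn (2 starts), Rgs5 and Vtn held no CArG-like match, and CACCC was found 2 times for Cldn5, 1 time each for Vtn and one Postn start, and 0 times for Rgs5 and the other Postn start. CCGCCC, also searched on both strands, was found 1 time for Cldn5 and 0 times for Acta2, Vtn, Rgs5 and both Postn starts, and was present in 35.7% of all promoters.

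The 10 genes together took only 0.0103% to 0.0283% of the counts of a library, and their levels were far apart. Per kilobase of exon and averaged over the 7 libraries, Acta2 stood highest at 3036 normalized counts, followed by Tagln at 747. Postn (56.4) and Pdgfrb (45.3) came next, then Dcn (19.2), Lum (8.87), Pecam1 (6.23), Rgs5 (6.12) and Vtn (3.16), with Cldn5 last at 0.0695. Acta2 lay above Tagln, and Tagln above every other marker, in each of the 7 libraries. Neighbours further down overlapped in their ranges, as Postn (14.8 to 143) did with Pdgfrb (24.1 to 87.2), Dcn (1.32 to 52.7) with Lum (2.61 to 19.4), and Pecam1 (2.91 to 14.5) with Rgs5 (4.84 to 8.03). Acta2 and Tagln made up 84.3% to 93.8% of the summed normalized counts of the 10 genes. The markers were therefore very unequal in depth, from 36794 counts for Acta2 over all libraries to 1 count for Cldn5.

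**Figure D1:**
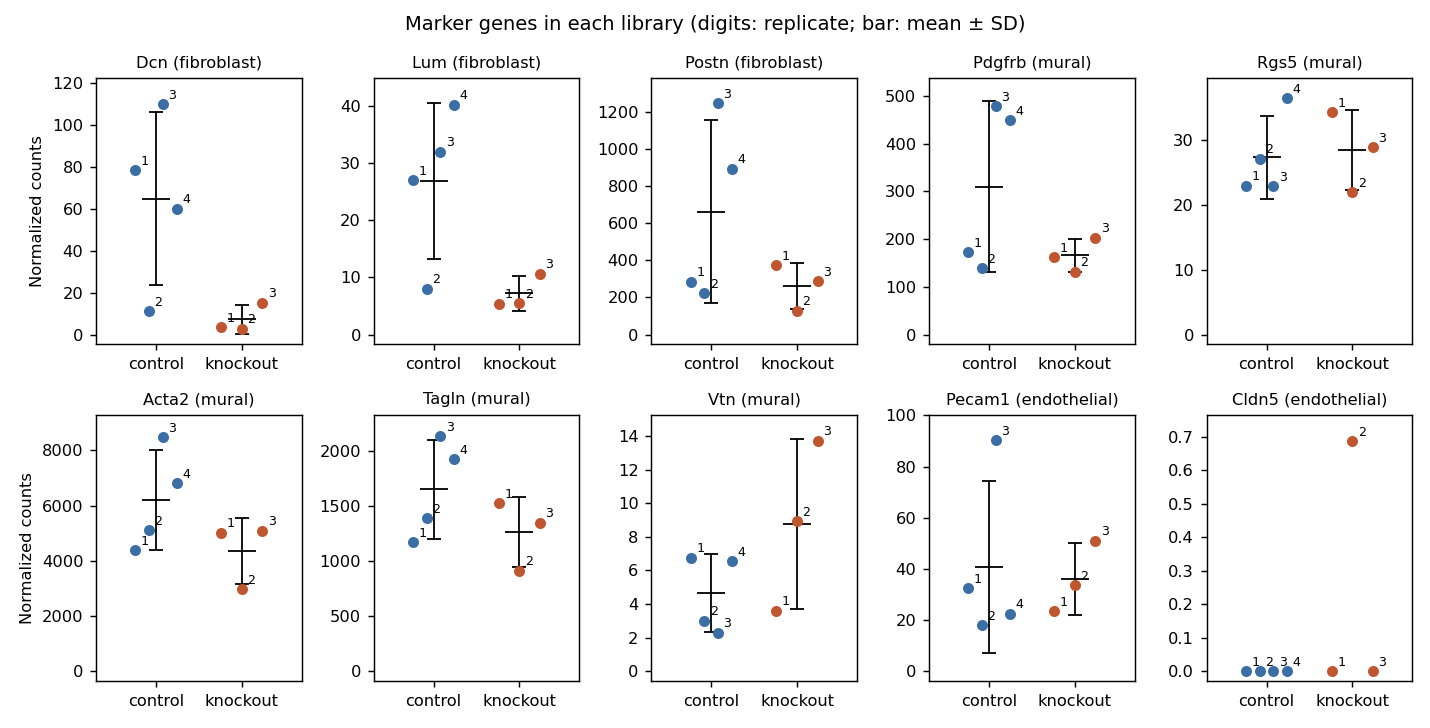
Normalized counts (vertical axis, own linear scale in each panel) of the 10 marker genes in the 4 control and 3 knockout libraries. Digits are replicate numbers and black bars the mean ± SD, left out for Cldn5 with its 1 count. For Dcn and Lum, control replicate 2 lies among the knockout libraries and the other controls above them, and in no panel are the groups apart.

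**Figure D2:**
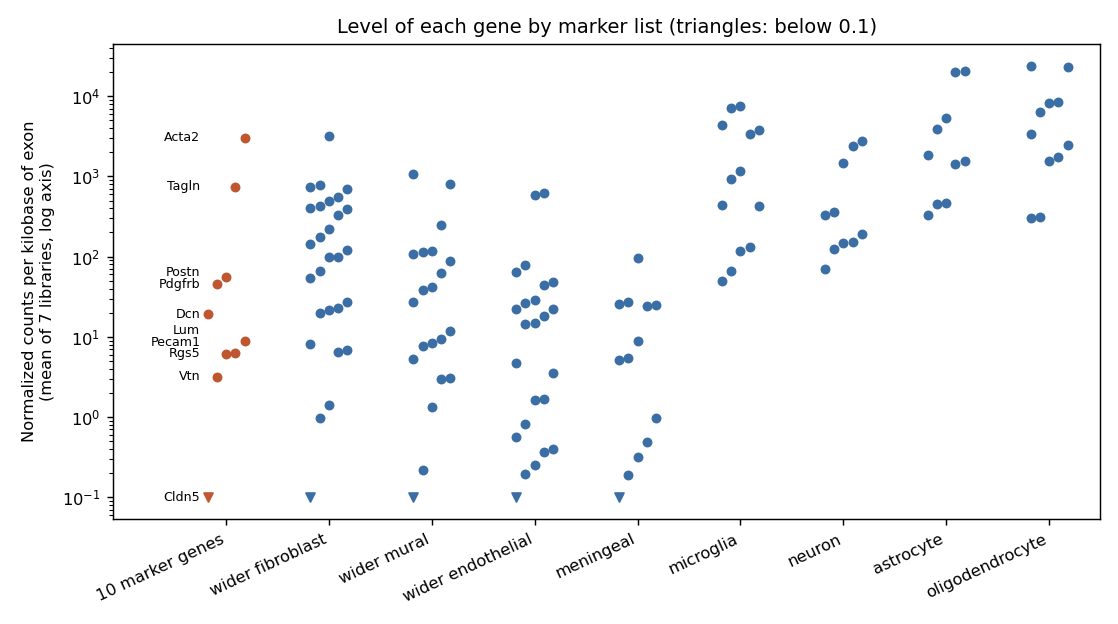
Mean level over 7 libraries, in normalized counts per kilobase of exon on a log axis, of each marker gene (red, named) and of genes of other marker lists (blue). Triangles mark genes below 0.1, among them Cldn5. Acta2 and Tagln lie as high as many microglia and astrocyte markers, whereas the other 8 lie below 100.

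Of the 10 markers, 8 had enough counts to be tested, Vtn and Cldn5 had not. Only Dcn was lower in the knockout by the threshold on the adjusted p of 0.05, and it was also below a log2 fold change of -1. In edgeR, DESeq2 and limma voom alike, 0 markers were higher, and 0 were higher at an unadjusted p under 0.05. Over all genes tested, 12.2% were lower and 11.6% higher at this adjusted p, and 3.08% were lower with a log2 fold change of -1 or less. At the adjusted p alone, 1 among 8 is thus close to the background. Of the 8, 7 had a log2 fold change below 0, with a median of -0.71 against -0.0037 over all genes tested. Dcn and Lum reached the minimum for testing in 1 knockout library each and in 4 and 3 control libraries, so that they were tested through the group in which they were high, and the counts and the median over the tested markers are a description only. The unadjusted p was under 0.05 for 2 markers, Dcn and Lum. In 0 of the 10 markers were the libraries of both groups apart, whereas 36.2% of all tested genes had groups that did not overlap. RNA of whole cultures was measured, so that fewer cells of a type and less RNA per cell cannot be told apart.

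The fibroblast markers Dcn and Lum were low in every knockout culture and in a single control culture. Decorin, the product of Dcn, is a small leucine-rich proteoglycan that binds collagen fibrils. Dcn (chr10:97479500-97518162, plus strand, 9 exon blocks) had 78.3, 11.1, 110 and 59.9 normalized counts in control replicates 1 to 4 and 3.61, 2.75 and 15.2 in knockout replicates 1 to 3. Control replicate 2 thus lay below knockout replicate 3, and the other controls lay above all knockouts. The mean fell from 64.8 ± 41.3 (SD, n = 4) to 7.20 ± 6.97 (SD, n = 3), and the log2 fold change was -3.05 (SE 0.88, interval -5.11 to -0.99, edgeR adjusted p = 0.0437). With a block for the replicate number, the fold change of Dcn was -3.00 (edgeR adjusted p = 0.0121). The numbered pairs differed by -3.84, -1.46 and -2.70, on the log2 scale of CPM. The call rested on few counts, 255 in all, and was kept in 8 of 16 alternatives. With all libraries it was lost with limma voom (adjusted p = 0.115), without a filter on low counts (edgeR adjusted p = 0.0921) and with ribosomal RNA share as a covariate (edgeR adjusted p = 0.0526), at log2 fold changes of -2.95, -3.05 and -3.42. Without knockout replicates 1 or 2 the edgeR adjusted p of Dcn was 0.128 and 0.138, and without control replicates 1, 3 or 4 it was 0.0832, 0.0739 and 0.0822. Without control replicate 2 it was 0.0134, and without knockout replicate 3 it was 0.0458. The size also rested on single libraries, with a log2 fold change of -4.35 without knockout replicate 3 and -2.57 without knockout replicate 2.

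Lumican, encoded by Lum, is a proteoglycan of the same family that regulates the assembly of collagen fibrils. Lum lies 47.3 kb downstream of Dcn on the same strand (chr10:97565501-97572703, 3 exon blocks). It had 27.0, 8.04, 32.0 and 40.2 normalized counts in the control cultures against 5.42, 5.50 and 10.7 in the knockout cultures. As for Dcn, control replicate 2 lay below knockout replicate 3 and the other controls above all knockouts. The log2 fold change of Lum was -1.84 (SE 0.58, interval -3.19 to -0.49) and missed the threshold with an edgeR adjusted p of 0.0567. With the block it was -1.45 (edgeR adjusted p = 0.0864), and without control replicate 2 it was -2.15 and passed (edgeR adjusted p = 0.0127). Lum also passed with DESeq2's Wald test (adjusted p = 0.0163), without a filter on low counts (edgeR adjusted p = 0.0489) and with ribosomal RNA share as a covariate (edgeR adjusted p = 0.0305). Without control replicate 4, Lum had too few counts to be tested. Over the 7 libraries, Dcn and Lum correlated at 0.96 in log2 CPM (Pearson, a description over libraries that share depth and group). Their ratio per kilobase ranged from 1.37 to 3.41 in the control cultures against from 0.498 to 1.42 in the knockout cultures, on counts as low as 2.

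Periostin, encoded by Postn, is a secreted matrix protein of fibroblasts at sites of remodelling. Postn (chr3:54361109-54391037, plus strand, 22 exon blocks) had 285, 224, 1246 and 894 normalized counts in the control cultures against 374, 128 and 286 in the knockout cultures. Control replicates 3 and 4 were high, whereas control replicates 1 and 2 lay within the range of the knockouts. The log2 fold change was -1.35 (SE 0.68, interval -2.93 to 0.23, edgeR adjusted p = 0.198). The block moved it to -0.90 (edgeR adjusted p = 0.248), and leaving out control replicate 3 moved it to -0.86. Knockout replicate 1 was above control replicate 1 by 0.39 on the log2 scale of CPM, so that only 2 of 3 numbered pairs were lower.

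Among the mural markers, none passed the test, and Pdgfrb and the smooth muscle genes shared the high values of control replicates 3 and 4. Pdgfrb, the receptor by which pericytes are recruited to vessels, lies on chr18:61045150-61085061 (plus strand, 24 exon blocks). It had 173, 139, 478 and 449 normalized counts in the control cultures against 162, 132 and 203 in the knockout cultures. Its log2 fold change of -0.90 (SE 0.47, interval -2.01 to 0.21, edgeR adjusted p = 0.218) dropped to -0.50 with the block (edgeR adjusted p = 0.257). All 3 numbered pairs were lower, by 0.09 and 0.07 in the first pairs and by 1.23 in the last. Control replicate 4 has no partner and does not inform the blocked value.

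Acta2 encodes smooth muscle alpha actin, the actin of contractile mural cells and of myofibroblasts. Acta2 (chr19:34241090-34255336, minus strand, 9 exon blocks) had 4392, 5115, 8473 and 6803 normalized counts in the control cultures against 5010, 2965 and 5091 in the knockout cultures. Knockout replicates 1 and 3 lay between control replicates 1 and 2, and knockout replicate 2 was lowest. The control mean of 6196 ± 1824 (SD, n = 4) stood against 4355 ± 1205 (SD, n = 3), a log2 fold change of -0.51 (SE 0.27, interval -1.15 to 0.13, edgeR adjusted p = 0.227).

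Transgelin, encoded by Tagln, binds actin filaments in smooth muscle. Tagln (chr9:45929619-45936058, minus strand, 5 exon blocks) had 1171, 1388, 2133 and 1923 normalized counts in the control cultures against 1527, 912 and 1348 in the knockout cultures. Its log2 fold change was -0.39 (SE 0.25, interval -0.98 to 0.20, edgeR adjusted p = 0.312). Of the 1988 exon bases of Tagln, 1349 (67.9%) overlap exons of Pcsk7 and Gm48529 on the other strand, and whether reads of both strands were told apart is not stated, so that the level of Tagln and its ratio to Acta2 are uncertain. Pcsk7 had 1350, 1542, 1551 and 1483 normalized counts in the control cultures against 1174, 1285 and 1098 in the knockout cultures. None of the other 9 markers shares exon bases with another gene of the files.

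Acta2 and Tagln kept nearly the same proportion in every culture. Their ratio per kilobase, Tagln over Acta2, ranged only from 0.226 to 0.276, a spread of 1.22 times, and their log2 CPM correlated at 0.98. The ratio of Postn to Pdgfrb spread 2.68 times, from 0.613 to 1.64. Postn correlated with Tagln, Pdgfrb and Acta2 at 0.95, 0.95 and 0.94 over the 7 libraries. Actg2, the enteric smooth muscle actin, did not keep its proportion to Acta2, with ratios from 0.0391 to 0.156 in the control cultures against from 0.00701 to 0.0313 in the knockout cultures. Actg2 belongs to the wider mural list described further on.

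Rgs5 and Vtn, which mark pericytes, did not follow this pattern. Rgs5 encodes a regulator of G protein signalling that is strongly expressed in brain pericytes. Rgs5 (chr1:169655501-169695813, plus strand, 6 exon blocks) had 23.0, 27.1, 22.9 and 36.5 normalized counts in the control cultures against 34.3, 22.0 and 28.9 in the knockout cultures. The ranges of both groups nearly coincided. The log2 fold change was 0.02 (SE 0.27, interval -0.62 to 0.66, edgeR adjusted p = 0.970). Its sign flipped to -0.01 with DESeq2's Wald test and to -0.14 with ribosomal RNA share as a covariate. The correlations of Rgs5 with the other tested markers lay between -0.50 and 0.45.

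Vitronectin, encoded by Vtn, is an adhesive protein of plasma and matrix that brain pericytes also express. Vtn (chr11:78499091-78502324, plus strand, 6 exon blocks) had 5, 3, 2 and 7 raw counts in the control cultures against 2, 13 and 18 in the knockout cultures, or 6.75, 3.02, 2.29 and 6.55 against 3.61, 8.94 and 13.7 normalized counts. The mean difference in log2 CPM was 0.64, and an exact two-sided permutation test gave p = 0.229, where 4 against 3 libraries allow 0.0571 at the lowest.

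The endothelial markers gave little. Cldn5 encodes claudin 5, the main tight junction protein of brain endothelium. Cldn5 (chr16:18776847-18778260, plus strand, 1 exon block) had 1 count in knockout replicate 2 and 0 in the other 6 libraries, so that it was at the limit of detection in both groups and no fold change is given. Pecam1 encodes CD31, an adhesion molecule of endothelial junctions, platelets and leukocytes. Pecam1 (chr11:106654217-106750628, minus strand, 17 exon blocks) had 32.4, 18.1, 90.3 and 22.5 normalized counts in the control cultures against 23.5, 33.7 and 51.0 in the knockout cultures. Control replicate 3 stood well above the rest and knockout replicate 3 came next. The log2 fold change of -0.14 (SE 0.59, interval -1.51 to 1.24, edgeR adjusted p = 0.896) turned to 0.62 without control replicate 3.

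The order of the libraries in Pecam1 resembled that of the microglia markers. Summed per kilobase, the 13 microglia genes had 20280, 17060, 74020 and 19030 normalized counts in the control cultures against 18700, 21750 and 36180 in the knockout cultures, and none of them was at 0 in any library. Control replicate 3 and, behind it, knockout replicate 3 were thus highest in both. C1qa, a complement component of microglia and the most abundant of the list, had 21480 normalized counts in control replicate 3 and 4595 to 4882 in the other controls. With edgeR, DESeq2 or limma voom, 0 of the 13 microglia genes passed in either direction, and 0 had an unadjusted p under 0.05, with a median log2 fold change of -0.41, which turned to 0.33 without control replicate 3. Of the 5 genes whose log2 CPM followed Pecam1 most closely, P2ry13 (0.99), Rgs14 (0.98) and Ms4a4a (0.98) stood beside Stxbp5 (0.99) and Plin2 (0.99), as Pearson correlations over 7 libraries. P2ry13 encodes a purine receptor known from microglia, and Ms4a4a a membrane protein known from macrophages. The part of microglial RNA in the counts of Pecam1 was not tested.

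**Figure D3:**
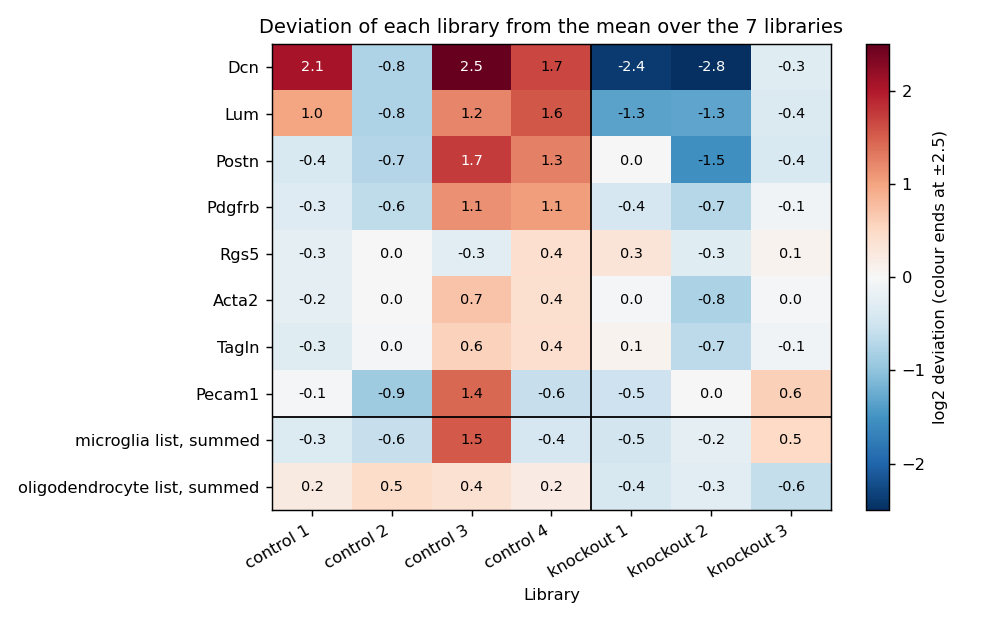
Log2 deviation of each library (columns) from the mean over the 7 libraries, for the 8 tested markers and, below the line, for the summed microglia and oligodendrocyte lists (rows). Dcn reaches 2.5 in control replicate 3 and -2.8 in knockout replicate 2, Rgs5 stays within ±0.4, and Pecam1 and the microglia list share their maxima of 1.4 and 1.5 in control replicate 3.

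Control cultures varied more among themselves in these markers than in most genes. The highest control was 1.60 (Rgs5) to 9.92 (Dcn) times the lowest among the 8 tested markers, against a median of 1.37 over all tested genes. The coefficient of variation among controls was 63.8% for Dcn, 50.9% for Lum, 74.4% for Postn, 57.7% for Pdgfrb and 82.1% for Pecam1, and 23.4% to 29.4% for Rgs5, Acta2 and Tagln, with a median of 14.1% over all tested genes. These values stood at the 67.2 to 97.6 percentile of all tested genes. The comparison was not matched for depth, and counting error widens such spreads at low counts. Raw counts among controls were 17 to 39 for Rgs5, 8 to 43 for Lum, 18 to 79 for Pecam1 and 11 to 96 for Dcn. Control replicate 3 was the highest library for 6 of the 10 markers and control replicate 4 for 2. Knockout replicate 2 was the lowest for 6.

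**Figure D4:**
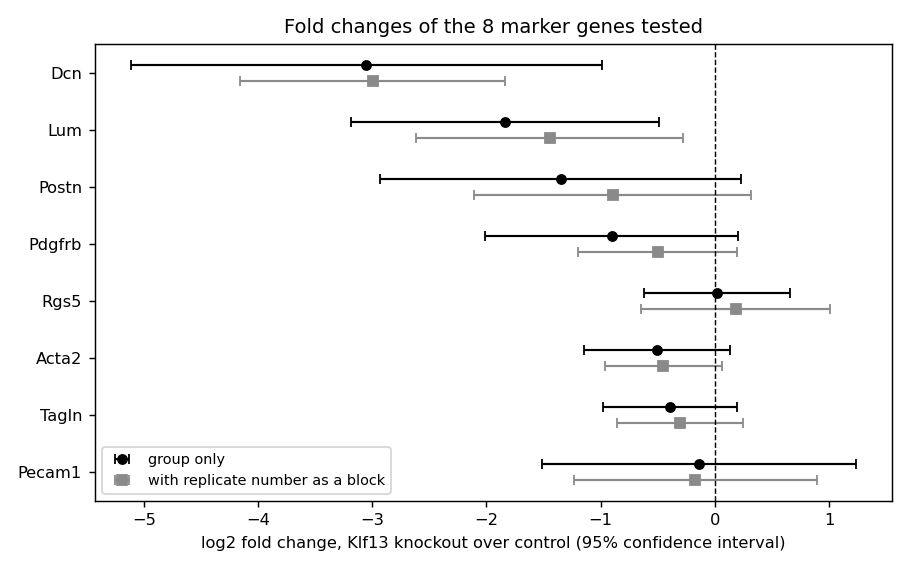
Log2 fold changes of the 8 tested markers (horizontal axis, knockout over control) with 95% confidence intervals, from the fit on group alone (black circles) and the fit that also has replicate number as a block (grey squares). The intervals of Dcn and Lum lie below 0 in both fits before adjustment for all genes, and those of the other 6 include 0.

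Wider lists of markers for the same cell types, chosen beside the 10 genes, gave genes in both directions. Of 28 further fibroblast genes, 25 were tested, 3 fell and 3 rose by the same threshold, and the median was -0.93. These shares were close to those over all tested genes. With the replicate block, 7 were lower (11.1% of all tested genes were) and 3 higher, with a median of -0.74. The 3 most abundant were Lgals1, Fn1 and Ccn2. Lgals1, a galectin that is not restricted to fibroblasts, had a log2 fold change of -0.70 (edgeR adjusted p = 0.203), and passed with the block (-0.51, edgeR adjusted p = 0.0483). Fn1, which encodes fibronectin, had 7606, 5658, 19580 and 19360 normalized counts in the control cultures against 3791, 2598 and 5963 in the knockout cultures. Its log2 fold change of -1.66 missed the threshold (edgeR adjusted p = 0.057) and passed with the block (-1.28, edgeR adjusted p = 0.00553). Ccn2, a matricellular growth factor, fell from 3004 ± 1548 (SD, n = 4) to 871 ± 300 (SD, n = 3) normalized counts (log2 fold change -1.79, edgeR adjusted p = 0.0295). Ccn2 lost the threshold without knockout replicate 1 or 2 or control replicate 4, at an edgeR adjusted p of up to 0.107. The genes named in the rest of this paragraph were chosen after their values were seen. Fbln2 and Lox, a fibulin and the collagen cross-linking enzyme, also fell (-2.91 and -2.52, edgeR adjusted p = 0.0463 and 0.0416; -2.17 for Fbln2 with the block), and both passed only without control replicates 1 or 2 when libraries were left out in turn. Fbln5, Mfap2 and Islr, 3 genes of elastic fibres and secreted matrix, rose by 1.12, 1.00 and 1.39 (edgeR adjusted p = 0.00422, 0.00253 and 0.00474), past the threshold whichever library was left out.

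Of 21 further mural genes, 17 were tested, 4 were lower and 1 higher (4 and 2 with the block), against 12.2% lower and 11.6% higher over all tested genes, and the median was -0.68. Of the 17, Des reached the minimum for testing in 0 knockout libraries and Foxs1 in 1, so that both entered through the controls in which they were high, and the median is a description only. The most abundant were Mcam, Myl9 and Actg2. Mcam encodes CD146, an adhesion molecule of mural and endothelial cells. Mcam had 5244, 5793, 5220 and 5012 normalized counts in the control cultures against 1352, 1074 and 1207 in the knockout cultures. The groups were clearly apart, with a log2 fold change of -2.14 (SE 0.09, edgeR adjusted p = 2.73e-05). Unlike Dcn or Postn, Mcam was even among the controls, and with 1 library left out it stayed between -2.20 and -2.06. Which cells of the cultures carried Mcam was not tested. Myl9, the regulatory light chain of smooth muscle myosin, had a log2 fold change of -0.17 (SE 0.23, edgeR adjusted p = 0.649). Actg2 had 252, 175, 1159 and 898 normalized counts in the control cultures against 30.7, 22.0 and 139 in the knockout cultures (log2 fold change -3.23, edgeR adjusted p = 0.0448). Actg2 passed only without control replicate 2 or knockout replicate 3 when libraries were left out in turn, with an edgeR adjusted p of up to 0.138 otherwise, and its log2 fold change was -4.60 without knockout replicate 3. Chosen after their values were seen, the other genes past the threshold were Lmod1 and Smtn, lower by 0.68 and 1.27 on the log2 scale, and Synpo2, higher by 1.03. Synpo2 lost the threshold without knockout replicate 2 (edgeR adjusted p = 0.0626). Myocd, the cofactor that sets the smooth muscle program, had 3 counts or fewer in every library.

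Of 24 further endothelial genes, 15 were tested, 2 were lower and 1 higher, close to the 12.2% and 11.6% over all tested genes, with a median of -0.35. Markers of endothelium were unequal in depth. Tie1, Erg, Sox18 and Emcn had 3 counts or fewer in every library, and Sox17 had 0 throughout. Other genes of the list were counted more deeply, with 2088 counts over all libraries for Flt1, 1160 for Kdr, 798 for Cdh5, 752 for Cd34, 675 for Plvap, 666 for Tal1, 654 for Egfl7 and 416 for Eng (chosen after their values were seen), and of these only Cdh5 passed the test. Like Pecam1, Cd34 and Tal1 were highest in control replicate 3 (213 and 229 normalized counts), followed by knockout replicate 3 (152 and 104). The part of microglial RNA in their counts was not tested. The most abundant genes of the list, Slc2a1, Mfsd2a and Vwf, are a glucose transporter, a lipid transporter and von Willebrand factor. Slc2a1, which glia also express, fell from 2427 ± 63.4 (SD, n = 4) to 1900 ± 152 (SD, n = 3) normalized counts, by 0.35 on the log2 scale (edgeR adjusted p = 0.00981), and was at an edgeR adjusted p of at most 0.0504 with libraries left out in turn, past the threshold in all but the fit without knockout replicate 1. Mfsd2a and Vwf had log2 fold changes of 0.38 and -0.47 (edgeR adjusted p = 0.168 and 0.221). The other genes past the threshold, chosen after their values were seen, were Ramp2, a coreceptor for adrenomedullin (higher by 0.87, edgeR adjusted p = 0.00661), and Cdh5, which encodes vascular endothelial cadherin. Cdh5 had 116, 53.3, 295 and 288 normalized counts in the control cultures against 21.7, 7.56 and 53.3 in the knockout cultures (log2 fold change -2.75, edgeR adjusted p = 0.0483), and passed only without control replicate 2 or knockout replicate 3 when libraries were left out in turn. Its log2 fold change was -3.85 without knockout replicate 3. Cdh5 was thus high in control replicates 3 and 4, as Postn and Pdgfrb were, and not in control replicate 3 alone, as Pecam1 was.

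Of 13 meningeal genes, 8 were tested, 2 were lower and 1 higher (12.2% and 11.6% over all tested genes), and 7 of the 8 had a log2 fold change below 0, with a median of -1.13. Zic1 and Foxc1 encode transcription factors of the meninges and of other tissues. Zic1, the 1 tested gene of the list above 0, rose by 1.11 on the log2 scale (edgeR adjusted p = 0.0347) and Foxc1 fell by 1.09 (edgeR adjusted p = 0.0228), and each lost the threshold without knockout replicate 1 or 2, Zic1 also without control replicate 3 and Foxc1 also without control replicate 4. The other gene counted as lower was Aldh1a2, a retinoic acid enzyme chosen after its values were seen, with 13, 8, 19 and 29 raw counts among controls and 4, 4 and 1 among knockouts. With the block, Aldh1a2 missed the threshold (edgeR adjusted p = 0.0889). Foxc2, also chosen after its values were seen, passed with the block (edgeR adjusted p = 0.0356). Aldh1a2 and Foxc2 reached the minimum for testing in 0 knockout libraries and were thus tested because controls were high, so that their calls and the median of this list are no evidence of a fall. The log2 fold change of Ccn3, a matricellular protein, was -0.22 (edgeR adjusted p = 0.753). The transporters Slc47a1, Slc22a6 and Slc22a2 had 3 counts or fewer in every library. Among 10 other small leucine-rich proteoglycans, the family of Dcn and Lum, 6 were tested and 0 passed, with a median of 0.02. DESeq2 and limma voom gave 0 as well, 1 was lower at an unadjusted p under 0.05 in edgeR, and 1 was lower with the block. Bgn, which encodes biglycan, had 2039, 1330, 6001 and 7182 normalized counts in the control cultures against 1338, 861 and 1847 in the knockout cultures (log2 fold change -1.62, edgeR adjusted p = 0.104, and -0.99 with edgeR adjusted p = 0.0403 with the block). Fmod and Podn had log2 fold changes of 0.23 and -0.18 (edgeR adjusted p = 0.476 and 0.304).

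Among 18 genes of actin and contraction outside smooth muscle, 16 were tested, 2 were lower and 2 higher, with a median of -0.27, whereas DESeq2 gave 5 lower genes and the fit with ribosomal RNA share as a covariate 0. The cytoplasmic actins Actb and Actg1 had log2 fold changes of -0.19 and 0.01 (edgeR adjusted p = 0.351 and 0.940), and Cnn3, an actin-binding calponin, rose by 0.49 (edgeR adjusted p = 0.00429). Chosen after their values were seen, the others past the threshold were the focal adhesion genes Vcl and Zyx, which fell by 0.58 and 0.52, and Tagln3, a neuronal relative of Tagln, which rose by 0.99. With the block, Vcl and Zyx missed the threshold and Myh9 and Tagln2 were the 2 lower genes. With libraries left out in turn, Vcl passed only without control replicate 1, 2 or 3 and Zyx only without control replicate 2, while Tagln3 missed it only without knockout replicate 2 (edgeR adjusted p = 0.0818). Of 20 genes of PDGF and TGF-beta signalling, all were tested, 9 were lower and 2 higher, with a median of -0.39, and with the block 9 were lower and 0 higher. Over all tested genes, 12.2% were lower and 11.6% higher, and 11.1% lower with the block. Pdgfra, the receptor of oligodendrocyte precursors and of fibroblasts, had a log2 fold change of 0.07 (edgeR adjusted p = 0.451). Pdgfa, its ligand, fell by 0.44 (edgeR adjusted p = 0.0147), and lost the threshold without knockout replicate 2 or 3 (edgeR adjusted p of up to 0.0614). Smad4, the shared signal transducer, rose by 0.15 (edgeR adjusted p = 0.0465), but was past the threshold in 0 of 7 fits with a library left out. Chosen after their values were seen, Smad7, an inhibitor of the pathway, fell by 1.51 (edgeR adjusted p = 8.20e-05), and Ltbp2, a matrix protein, fell by 2.39 (edgeR adjusted p = 0.0211). Without knockout replicate 1 or 2, Ltbp2 missed the threshold, at an edgeR adjusted p of up to 0.0868, whereas Smad7 passed with any library left out. Ltbp2 had 466, 390, 1239 and 1485 normalized counts in the control cultures against 143, 130 and 238 in the knockout cultures, high in control replicates 3 and 4 as were Fn1, Bgn and Postn.

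Genes other than the 10 markers that followed the markers most closely over the 7 libraries were looked for in the same way as for Pecam1. For the mean profile of Dcn, Lum and Postn these were Hbp1, Entpd7, Scamp2, Fbxl4 and Srpx2, with Pearson correlations of 0.98 to 0.99. Hbp1, a transcriptional repressor, had 3452, 3141, 3863 and 3865 normalized counts in the control cultures against 3087, 2972 and 3292 in the knockout cultures. For the 4 tested mural markers, they were Osr1 (0.99), S100a10 (0.97), Igf2bp1, Cxcr6 and Msrb3 (0.96 to 0.97). Osr1, a transcription factor of mesenchyme, had 13.5, 17.1, 35.4 and 44.0 normalized counts in the control cultures against 19.9, 6.87 and 16.0 in the knockout cultures. With 7 libraries and 18352 genes, close likeness of some genes is to be reckoned with, and the correlations are a description.

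Markers of other cells also moved with the group. As background for the counts below, the fit on group alone placed 12.2% of tested genes below control and 11.6% above. Under the block, 11.1% of tested genes lay below. The 11 oligodendrocyte genes had summed levels of 89040 to 106100 normalized counts per kilobase in the control cultures against 51390 to 64520 in the knockout cultures, and 6 were lower and 0 higher. Cnp, a myelin enzyme, fell by 0.96 (edgeR adjusted p = 0.000703), while the lineage factors Olig1 and Sox10 had log2 fold changes of -0.10 and -0.31 (edgeR adjusted p = 0.458 and 0.207). Of 10 astrocyte genes, 8 were higher (7, with 1 lower, under the block), with summed levels of 47850 to 55020 in the control cultures against 58070 to 66180 in the knockout cultures. Gfap, an intermediate filament of astrocytes, rose by 0.66 (edgeR adjusted p = 0.024, up to 0.088 over the alternatives), and Aldoc, a glycolytic enzyme, by 0.48 (edgeR adjusted p = 0.0437, up to 0.126). S100b, a calcium-binding protein of astrocytes and of some oligodendroglia, had a log2 fold change of -0.54 (edgeR adjusted p = 0.0923), and -0.35 with the block (edgeR adjusted p = 0.0204). Of 10 neuron genes, 9 were higher (with 1 lower under the block), with sums of 5911 to 7726 and 8378 to 11840. Map2, a microtubule protein of dendrites, rose by 0.73 (edgeR adjusted p = 0.00479), and Tubb3, a neuronal tubulin, by 0.72 (edgeR adjusted p = 0.0163). Elavl3, a neuronal RNA-binding protein, had a log2 fold change of -0.46 (edgeR adjusted p = 0.0977), and -0.55 with the block (edgeR adjusted p = 0.0241). Ependymal and choroid plexus genes (8, of which 4 tested) had 0 lower and 0 higher in edgeR, 1 higher at an unadjusted p under 0.05, 1 higher with DESeq2 and 0 with limma voom. Of 7 Schwann cell genes, 6 were tested, 2 were lower and 0 higher, with sums of 128 to 172 and 46.0 to 104. None of the oligodendrocyte, astrocyte or neuron genes was at 3 counts or fewer throughout. For comparison, the summed levels of the 10 markers were 3183 to 6150 in the control cultures against 2181 to 3671 in the knockout cultures, which overlap. The part of these shifts in the values of Dcn, Lum and the other markers was not tested.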

How the data were processed

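RNA-seq libraries of 4 wildtype control and 3 Klf13 knockout cultures were analysed. The authors trimmed reads with Trimmomatic 0.36, mapped them with STAR 2.5.2b and counted unique exon hits per gene with Subread 1.5.2; the deposited values are raw counts per gene, with positions on GRCm38. The annotation release and strand setting are not given in the sources used here. Symbols were found for 48970 of 49315 genes. In R 4.3.3, edgeR 4.0.16 was used with filterByExpr, TMM factors and a robust quasi-likelihood fit on group, with Benjamini-Hochberg adjustment over 18352 genes, after testing on simulated counts. Thresholds were an adjusted p of 0.05 and, for calls, an absolute log2 fold change of 1. Correlations used log2 CPM with a prior count of 2. Promoters came from RefSeq (GRCm38.p6). Figures were drawn with Python 3.11.15 and matplotlib 3.10.9.

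The marker genes, lists and tests were chosen with earlier results of these data known. Genes were named by rule: all 10 markers, the 3 most abundant genes of each other list (by mean TPM computed from the counts), the 5 genes most like each marker class, and Klf13; genes outside it are said to be chosen after their values were seen. Some named genes of lists for other cell types are not described, and the values of some genes are not reported here. Alternatives were DESeq2 1.42.0, its size factors, total counts, library sizes without ribosomal RNA genes, other filters, limma voom (3.58.1), no robust estimation, the ribosomal RNA share as a covariate, the replicate block, and each library left out.

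Replicate numbers come from the sample titles, which do not say what such libraries have in common. Deviations from the group means of same-numbered control and knockout libraries correlated at 0.113, 0.463 and 0.168 across genes, all above 0.1, and those of differently numbered ones at -0.529 to 0.197. Control replicate 4 and knockout replicate 1 (0.197) thus resembled each other more than the same-numbered libraries at 0.113 and 0.168. The pairing is therefore an assumption, which these correlations bear out only in part. It was used in a further fit with a replicate block, whose values hold only under this assumption.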

Additional observations from a re-analysis of the deposited data

Results flagged for a closer look

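Among the 4 control libraries, 4 of 70 results had a library that stood apart by Dixon's ratio, the gap to the nearest library over the whole range, which lay above its 95% critical value. Chance flags about 1 in 20, and none of the 10 marker genes was among them. Control replicate 3 was the highest for the summed microglia genes (ratio 0.943, 74020 against 17060 to 20280 normalized counts per kilobase). It was also the highest for Ms4a4a (0.902, 255 against 41.2 to 62.1 normalized counts) and Plin2 (0.865, 10600 against 3448 to 4412), which follow Pecam1 over the libraries. Both genes were picked for their likeness to Pecam1, itself highest in control replicate 3, so that their flags are not independent results. Control replicate 4 was the lowest for Islr (0.967, 731 against 1242 to 1260 normalized counts).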

How the results depend on the processing

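The number of markers lower at the adjusted p, and of those called, was 1 and became 2 with DESeq2's Wald test (Dcn and Lum), 0 with limma voom, and 0 with at least 10 counts in every library, where Dcn and Lum were no longer tested. With 1 library left out it ranged from 0 to 2. The count stayed 1 but was Lum in place of Dcn without a filter (edgeR adjusted p of Lum 0.0489, of Dcn 0.0921) and with ribosomal RNA share as a covariate (0.0305 and 0.0526). The median of the markers stayed between -0.87 and -0.44. The replicate block kept the count at 1 with a median of -0.48, and lowered the size most for Lum, Postn and Pdgfrb. It changed no call of a marker. The wider fibroblast list had 9 lower genes with DESeq2's Wald test, 7 with the block, 1 with limma voom and 0 without a filter, and 0 to 9 with a library left out. The wider mural list had 7 lower genes with DESeq2's Wald test and 3 to 5 with a library left out, and 2 higher genes with DESeq2, limma voom, the block and the covariate, and 0 to 2 with a library left out. The wider endothelial list had 1 lower gene with limma voom and without a filter, and 0 to 2 with a library left out. Of 340 counts over the other 10 lists, 284 stayed within 1.5 times. The sign of Rgs5 turned with DESeq2's Wald test (-0.0116), library sizes without ribosomal RNA genes (-0.0026), limma voom (-0.0264) and the covariate (-0.14), and ran from -0.10 to 0.22 with a library left out. That of Pecam1 turned with limma voom (0.18) and the covariate (0.081), and ran from -0.47 to 0.62. The cause of these shifts was not tested. Low counts limit Dcn, Lum, Rgs5, Vtn, Pecam1 and Cldn5, at 1 to 274 counts over all libraries.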
